A study of Mus musculus with 24 samples.

Results

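Msi2, Ndel1, Sdc4, Taf15, Galc and Fndc3a are 6 mouse genes that each had an annotated probe set with a sharply lower signal in P3 α9-/- cochleae than in P3 wild type cochleae, and they were chosen by that difference. Every probe set that the array annotation assigns to only 1 of these symbols was taken, which gave 20 of the 45101 probe sets on the Affymetrix whole-genome mouse array. Msi2 had 8 probe sets, Galc and Fndc3a had 3 each, and Ndel1, Sdc4 and Taf15 had 2 each. A probe set is a group of short oligonucleotides whose signals are summarised into 1 value for a stretch of a transcript, and a value here is a log2 signal, so that a difference of 1 is a doubling. The probe set of each gene with the lowest α9-/- minus wild type difference at P3 is called its lead probe set.

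The 6 genes act in different places. Msi2 encodes Musashi-2, an RNA-binding protein that controls the translation of target mRNAs in stem and progenitor cells, and Taf15 encodes an RNA-binding protein of the FET family that associates with the general transcription factor TFIID. Ndel1 encodes a partner of LIS1 that regulates cytoplasmic dynein, the motor for movement toward the minus end of microtubules. Sdc4 encodes syndecan-4, a heparan sulfate proteoglycan of the cell surface found at focal adhesions. Galc encodes galactosylceramidase, the lysosomal enzyme that degrades galactosylceramide, a major lipid of myelin, and its loss causes globoid cell leukodystrophy (Krabbe disease). Fndc3a encodes a protein with fibronectin type III domains that is required for sperm development in the mouse.

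The arrays measured RNA of whole cochleae from mice null for the α9 subunit of the nicotinic acetylcholine receptor (α9-/-) and from age-matched wild type mice, at postnatal days 3, 7, 13 and 60 (P3, P7, P13, P60), before, around and after the onset of hearing. The null allele is constitutive, and all mice came from a 129S6 x CBA/CaJ hybrid strain that had been backcrossed to CBA/CaJ for at least 7 generations. Each of the 8 groups had 3 arrays, and each array held a separate pool, of 3 to 5 mice by the design notes, for 24 arrays in all. The methods give the pools as cochleae instead, with more of them at the younger ages, and the sources do not settle how many mice these were. A pool hides the spread between its animals, and in whole tissue fewer cells of a type and less RNA per cell cannot be told apart.

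Arrays of the same group correlated at 0.915 to 0.989 over all probe sets. The 3 probe sets of Chrna9, which encodes the α9 subunit, lay between 3.24 and 6.33 on all arrays, and their α9-/- minus wild type differences ran between -0.93 and 0.32. The files do not say whether these probe sets lie in the deleted part, so they do not check the genotype. The hair cell markers Myo7a (6.99 to 8.69) and Otof (7.16 to 8.47) were well measured, whereas Slc26a5 (4.0 to 5.45) and Pou4f3 (2.87 to 6.64) stayed near the low end of the scale. The Gapdh control probe set for the 5′ end of the transcript was lower than the 3′ one by 6.85 in P3 α9-/- replicate 2, and by 7.69 in P3 wild type replicate 1, 6.30 and 6.47 in P13 wild type replicates 1 and 2, and 6.47 in P60 wild type replicate 1. Of 11 cell type marker lists at 4 ages, the mean signal of the list separated the genotypes with no overlap in 4 of 44 cases, and these are given beside the results of their age.

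At P3, every α9-/- pool was below every wild type pool at all 6 lead probe sets. This contrast chose the genes, so the values are a description without a test. At Msi2 (1435521_at) the signal was 4.63, 4.41 and 4.45 in P3 α9-/- cochleae, against 9.72, 8.55 and 7.89 in P3 wild type cochleae, a difference of -4.22. The α9-/- pools lay close together near the bottom of the scale, and the wild type pools were spread over a wider range. At Taf15 (1438130_at) it was 5.92, 5.22 and 5.74 in α9-/- cochleae, against 8.68, 9.14 and 8.76 in wild type cochleae, a difference of -3.24. At Ndel1 (1424893_at) it was 4.55, 4.37 and 4.34 in α9-/- cochleae, against 7.62, 7.63 and 6.86 in wild type cochleae, a difference of -2.95. The α9-/- pools lay as close together at Ndel1 (SD 0.11, n = 3) as at Msi2 (SD 0.12, n = 3) and were more spread at Taf15 (SD 0.36, n = 3). At Sdc4 (1448793_a_at) it was 8.01, 7.45 and 7.40 in α9-/- cochleae, against 10.86, 10.84 and 10.82 in wild type cochleae, a difference of -3.22. At Galc (1452907_at) it was 4.41, 4.60 and 4.21 in α9-/- cochleae, against 7.58, 8.26 and 6.98 in wild type cochleae, a difference of -3.20. At Fndc3a (1458524_at) it was 4.76, 5.14 and 4.80 in α9-/- cochleae, against 7.29, 8.18 and 7.87 in wild type cochleae, a difference of -2.88. At Sdc4, the wild type pools were almost identical to each other.

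These differences took ranks 3 to 8 among the lowest of all 45101 probe sets at P3, with ranks 1 and 2 held by probe sets that the annotation leaves unnamed. Only 40 probe sets (0.0887%) were at or below -1.5 at P3, and 6 of them were the lead probe sets. Just outside the 6 genes came an unnamed probe set (-2.70) and Mysm1 (-2.70). Leaving out any 1 of the 6 P3 arrays kept all 6 differences between -4.64 and -2.68. The genes were chosen on these arrays and not chosen again each time, so this range describes the pools and is no check of the differences. The mean signal of the hair cell list (5 of 7 markers measured) was 6.06 to 6.34 in P3 α9-/- cochleae, against 6.50 to 6.66 in P3 wild type cochleae, and its part in these differences was not tested.

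**Figure D1:**
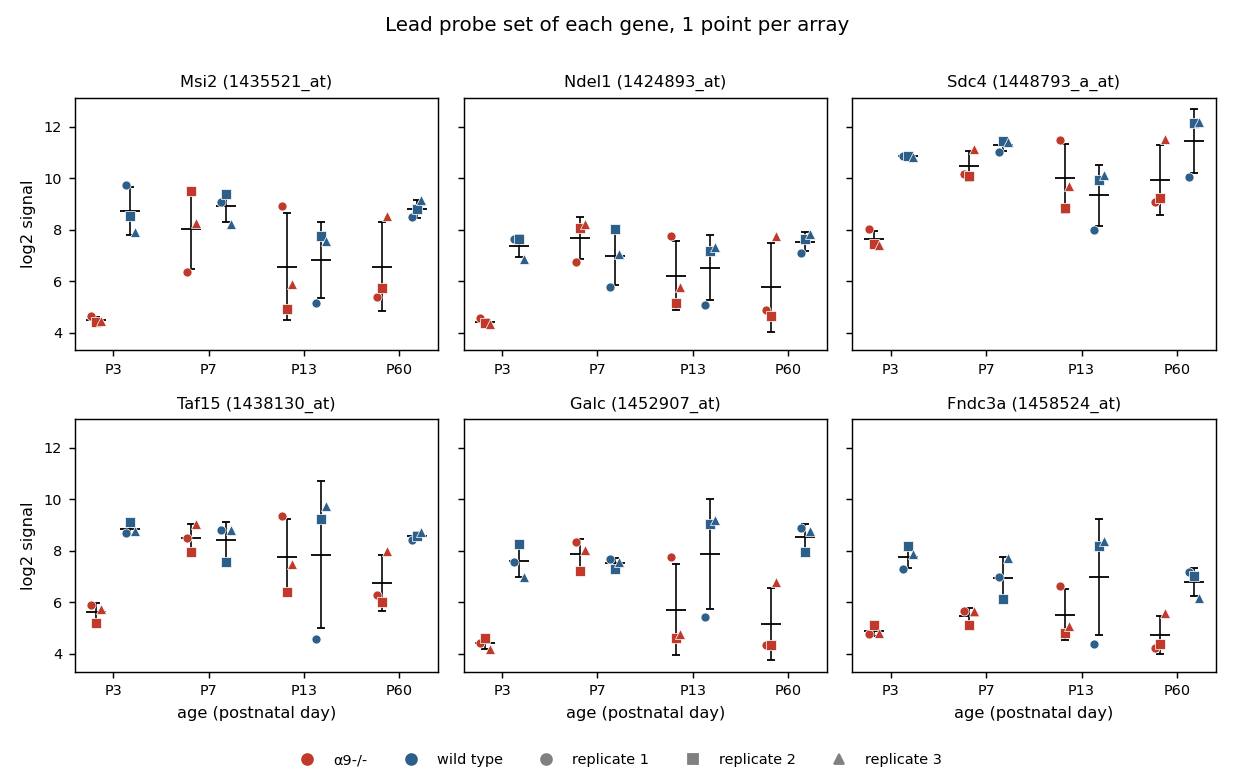
Log2 signal (y axis) of the lead probe set of each gene by age (x axis), with α9-/- arrays in red left of wild type arrays in blue; each point is 1 array, the marker shape gives the replicate number, and black lines give the mean and SD of 3 arrays. At P3 all α9-/- points lie below all wild type points, and at P13 both genotypes hold low and high pools.

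The genes lie on 4 chromosomes (GRCm38.p6). Ndel1 (chr11:68821434-68853146), Taf15 (chr11:83473073-83506743) and Msi2 (chr11:88339382-88718306) share chromosome 11, which holds 8.0% of the array's named genes. Sdc4 lies at chr2:164424247-164443188, Galc at chr12:98202287-98259459 and Fndc3a at chr14:72537948-72710701. No lead probe set shares its source sequence with another gene's lead probe set. The 120 bases before an annotated transcript start are shown for the 5 genes with an entry in the RefSeq promoter table, since their lead signals were low in the same pools, as described below. At Msi2, Taf15 and Ndel1 this start lies inside the gene bounds given above, so that part of the window does too. Capitals mark matches on either strand to the GC box GGGCGG, the CCAAT box, the E box CACGTG and the core of the cyclic AMP response element, TGACG.
Msi2, chr11:88718278-88718397, minus strand: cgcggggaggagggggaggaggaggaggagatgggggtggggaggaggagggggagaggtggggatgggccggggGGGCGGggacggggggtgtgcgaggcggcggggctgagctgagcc
Taf15, chr11:83472988-83473107, plus strand: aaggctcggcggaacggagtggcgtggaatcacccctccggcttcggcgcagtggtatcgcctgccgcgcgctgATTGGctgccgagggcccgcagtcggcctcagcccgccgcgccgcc
Ndel1, chr11:68853136-68853255, minus strand: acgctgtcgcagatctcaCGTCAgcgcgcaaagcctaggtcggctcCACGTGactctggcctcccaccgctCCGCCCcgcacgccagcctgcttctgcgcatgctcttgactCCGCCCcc
Sdc4, chr2:164443189-164443308, minus strand: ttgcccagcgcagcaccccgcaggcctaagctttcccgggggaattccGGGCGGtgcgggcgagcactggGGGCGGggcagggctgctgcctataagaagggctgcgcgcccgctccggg
Galc, chr12:98259460-98259579, minus strand: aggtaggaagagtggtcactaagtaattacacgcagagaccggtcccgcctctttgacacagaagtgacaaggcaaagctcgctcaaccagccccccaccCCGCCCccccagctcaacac
The GC box was in 4 of these 5 windows and in 26.5% of the 32851 windows of the table. The Taf15 window held a CCAAT box instead (21.3% of all windows), and the Ndel1 window also held an E box (3.7%) and the TGACG core (11.7%). None of the 5 held TATAAA (6.3% of all windows). The GC content was 78.3% for Msi2, 74.2% for Taf15, 73.3% for Sdc4, 68.3% for Ndel1 and 58.3% for Galc, against a median of 54.2% over all windows. Msi2 has a pair of further annotated starts whose windows overlap the one shown, and one of these windows (chr11:88718230-88718349) also held an E box and the TGACG core.

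Whether the low signal recurred was asked on the arrays of P7, P13 and P60, which played no part in the choice. Each age was compared by limma over the 18041 most variable probe sets of the 24 arrays, and a call needed a log2 difference of at least 1.5 in size together with an adjusted p below 0.05. The variance included the P3 arrays, at which the lead probe sets were chosen. All 6 lead probe sets and 5 of the other 14 passed this filter, and 9 did not. No probe set of the 6 genes was called at P7, P13 or P60 in either direction. The study's own supplementary list for P60 differs, since it includes the Galc lead probe set as lower in α9-/- cochleae. The background was 0.0111% of probe sets called at P7, 7.06% at P13 (0.565% lower and 6.5% higher in α9-/-) and 0% at P60. Over all 45101 probe sets, where the 9 probe sets outside the filter were read, it was 0.00443% at P7, 2.31% at P13 and 0% at P60. At an unadjusted p under 0.05 it was 1.48%, 37.3% and 6.1% at P7, P13 and P60. Of the 11 filtered probe sets of the 6 genes, 2 reached this level at P7 (Sdc4 and Fndc3a leads, lower), 2 at P13 (Msi2 1435520_at and Galc 1420547_at, higher) and 5 at P60 (all leads but Sdc4, lower).

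At P7, the signals at 5 of the 6 lead probe sets overlapped between the genotypes. At Msi2 the signal was 6.35, 9.48 and 8.25 in P7 α9-/- cochleae, against 9.08, 9.40 and 8.21 in P7 wild type cochleae, a difference of -0.87 (95% confidence interval -2.59 to 0.85). Only α9-/- replicate 1 was apart. At Taf15 it was 8.50, 7.94 and 9.04 in α9-/- cochleae, against 8.83, 7.58 and 8.82 in wild type cochleae, a difference of 0.08 (-0.92 to 1.09). At Ndel1 it was 6.73, 8.05 and 8.21 in α9-/- cochleae, against 5.79, 8.02 and 7.07 in wild type cochleae, a difference of 0.70 (-0.73 to 2.14). Here the lowest pool was wild type replicate 1. At Sdc4 it was 10.17, 10.07 and 11.13 in α9-/- cochleae, against 11.01, 11.46 and 11.42 in wild type cochleae, a difference of -0.84 (-1.62 to -0.05). At Galc it was 8.36, 7.24 and 8.05 in α9-/- cochleae, against 7.69, 7.30 and 7.56 in wild type cochleae, a difference of 0.37 (-0.40 to 1.14). No P7 pool reached the P3 α9-/- range at Msi2, Taf15, Ndel1, Sdc4 or Galc. Fndc3a was the 1 lead probe set without overlap, with 5.65, 5.11 and 5.68 in α9-/- cochleae, against 6.98, 6.14 and 7.74 in wild type cochleae, a difference of -1.47 (-2.45 to -0.50), where 1.82% of the tested probe sets had every α9-/- pool below every wild type pool. All 6 had an adjusted p of 1.00. The neutrophil marker list (4 of 4 measured) was 9.48 to 10.07 in P7 α9-/- cochleae, against 10.10 to 10.47 in P7 wild type cochleae, and its part was not tested.

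At P13, low signals returned in single pools of both genotypes, and the groups overlapped at all 6 lead probe sets, where 21.2% of the tested probe sets had every α9-/- pool below every wild type pool. At Msi2 the signal was 8.90, 4.92 and 5.88 in P13 α9-/- cochleae, against 5.13, 7.76 and 7.56 in P13 wild type cochleae, a difference of -0.25 (-2.78 to 2.27). At Taf15 it was 9.36, 6.40 and 7.48 in α9-/- cochleae, against 4.58, 9.25 and 9.75 in wild type cochleae, a difference of -0.11 (-3.29 to 3.06). The lowest Taf15 signal of all 24 arrays was thus in a wild type pool. At Ndel1 it was 7.74, 5.15 and 5.75 in α9-/- cochleae, against 5.06, 7.15 and 7.32 in wild type cochleae, a difference of -0.30 (-2.17 to 1.57). At Sdc4 it was 11.47, 8.85 and 9.67 in α9-/- cochleae, against 7.97, 9.92 and 10.10 in wild type cochleae, a difference of 0.66 (-1.15 to 2.47). In each of these, α9-/- replicate 1 was high and wild type replicate 1 was low relative to the other pools of its group. At Galc it was 7.77, 4.63 and 4.77 in α9-/- cochleae, against 5.44, 9.04 and 9.20 in wild type cochleae, a difference of -2.17 (-4.91 to 0.57, adjusted p = 0.211). At Fndc3a it was 6.65, 4.81 and 5.10 in α9-/- cochleae, against 4.40, 8.20 and 8.37 in wild type cochleae, a difference of -1.47 (-3.91 to 0.97, adjusted p = 0.322). The same pool, wild type replicate 1, made the groups overlap at Galc and Fndc3a. Without it, the Fndc3a difference was -2.77 with an adjusted p of 0.0308, where 918 of all 18041 tested probe sets were called, and the Sdc4 difference was -0.016. The differences at Msi2, Taf15 and Ndel1 turned positive without α9-/- replicate 2 (0.57, 0.56 and 0.23), wild type replicate 2 (0.22, 0.58 and 0.021) or wild type replicate 3 (0.12, 0.83 and 0.10). The neutrophil list was 12.17 to 12.42 in P13 α9-/- cochleae, against 12.73 to 13.28 in P13 wild type cochleae, and the cerebellar list (6 of 6 measured) was 6.35 to 8.54 in P13 α9-/- cochleae, against 6.90 to 10.18 in P13 wild type cochleae; their part was not tested.

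At P60, the signal at every lead probe set was low in α9-/- replicates 1 and 2 and higher in α9-/- replicate 3. At Msi2 it was 5.40, 5.72 and 8.54 in P60 α9-/- cochleae, against 8.47, 8.79 and 9.15 in P60 wild type cochleae, a difference of -2.25 (-3.97 to -0.54). At Taf15 it was 6.27, 6.0 and 8.01 in α9-/- cochleae, against 8.43, 8.59 and 8.74 in wild type cochleae, a difference of -1.83 (-3.04 to -0.61). At Ndel1 it was 4.88, 4.65 and 7.74 in α9-/- cochleae, against 7.11, 7.63 and 7.82 in wild type cochleae, a difference of -1.76 (-3.48 to -0.05). At Msi2 and Ndel1 the third α9-/- pool lay within the wild type range. At Sdc4 it was 9.07, 9.22 and 11.51 in α9-/- cochleae, against 10.03, 12.14 and 12.16 in wild type cochleae, a difference of -1.51 (-3.28 to 0.26). At Galc it was 4.35, 4.35 and 6.80 in α9-/- cochleae, against 8.88, 7.96 and 8.78 in wild type cochleae, a difference of -3.38 (-4.88 to -1.87). At Fndc3a it was 4.22, 4.40 and 5.59 in α9-/- cochleae, against 7.19, 7.03 and 6.18 in wild type cochleae, a difference of -2.06 (-3.15 to -0.97). The groups did not overlap at Taf15, Galc and Fndc3a, where 5.64% of the tested probe sets had every α9-/- pool below every wild type pool. All 6 adjusted p values were 0.776. With the variance filter taken over the 6 P60 arrays alone, Msi2 (adjusted p = 0.0202), Galc (adjusted p = 5.48e-05) and Fndc3a (adjusted p = 0.0483) were called lower. With that filter 144 of all 18041 tested probe sets were called, so these calls depended on which probe sets were tested together. The list of supporting cell and tectorial membrane markers (6 of 6 measured) was 9.37 to 9.62 in P60 α9-/- cochleae, against 9.69 to 9.84 in P60 wild type cochleae. The cerebellar list overlapped between the genotypes, with 9.72 to 11.93 in P60 α9-/- cochleae, against 8.20 to 10.73 in P60 wild type cochleae. The part of these lists was not tested.

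The mean α9-/- minus wild type difference over P7, P13 and P60 was below 0 at all 6 lead probe sets, and 1 of them passed the test. Fndc3a averaged -1.67 (95% confidence interval -2.64 to -0.70) with an adjusted p of 0.0498 by limma over the 18 arrays, where 1.33% of the 18041 probe sets were called lower, 2.94% higher and 27.9% had an unadjusted p under 0.05. Galc averaged -1.73 (-2.85 to -0.60, adjusted p = 0.0651) and Msi2 averaged -1.13 (-2.35 to 0.10, adjusted p = 0.213). Neither passed the test. Taf15 averaged -0.62 (adjusted p = 0.482), Sdc4 averaged -0.56 (adjusted p = 0.401) and Ndel1 averaged -0.45 (adjusted p = 0.540). The Fndc3a call was lost when all 45101 probe sets were tested (adjusted p = 0.0893) and when any of 13 of the 18 arrays was left out, with adjusted p between 0.01 and 0.106 as each array was left out in turn. No difference between the effects of any pair of these ages passed the test at a lead probe set, where 0, 1 (0.00554%) and 0 of the 18041 probe sets did for P13 against P7, P60 against P7 and P60 against P13.

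The 6 lead probe sets tended to be low in the same pools. An array was counted as low at a probe set where its signal was nearer the P3 α9-/- mean than the P3 wild type mean. By this count all 6 were low in P13 α9-/- replicate 2, P60 α9-/- replicates 1 and 2 and P13 wild type replicate 1, and 4 were low in P13 α9-/- replicate 3, the exceptions being Sdc4 and Taf15. P7 α9-/- replicate 1 was low at Msi2 and Fndc3a. A further 6 arrays were low at 1 gene, which was Fndc3a in 5 of them and Ndel1 in P7 wild type replicate 1, and the last 6 arrays were low at none. Outside P3, 27 of 54 values were low in α9-/- cochleae and 9 of 54 in wild type cochleae. By age this was 4 of 18 in α9-/- and 2 of 18 in wild type at P7, 10 of 18 in α9-/- and 6 of 18 in wild type at P13, and 13 of 18 in α9-/- and 1 of 18 in wild type at P60. All 6 low wild type values at P13 came from 1 pool. Fndc3a was low most often, in 8 of 9 α9-/- arrays and 3 of 9 wild type arrays, and Sdc4 and Taf15 least, in 3 of 9 α9-/- arrays and 1 of 9 wild type arrays each. Msi2 was low in 5 of 9 α9-/- arrays and 1 of 9 wild type arrays, Galc in 4 and 1, and Ndel1 in 4 and 2. These values share arrays, so they are not independent observations, and the ages appeared to have been normalised separately. In P60 α9-/- replicates 1 and 2, Sdc4 was -0.16 and -0.0053 from the midpoint. When only values within 1 of the P3 α9-/- mean were counted, 24 of 108 were low in place of 36 of 108. By that count no array outside P3 was low at all 6. P13 α9-/- replicate 2 and P60 α9-/- replicate 1 were then low at 5 genes, and P60 α9-/- replicate 2 at 4. P13 wild type replicate 1 was also low at 4. Its Taf15 signal (4.58, against a P3 α9-/- mean of 5.62) lay more than 1 below that mean. Its Galc signal (5.44, against 4.41) lay more than 1 above it.

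**Figure D2:**
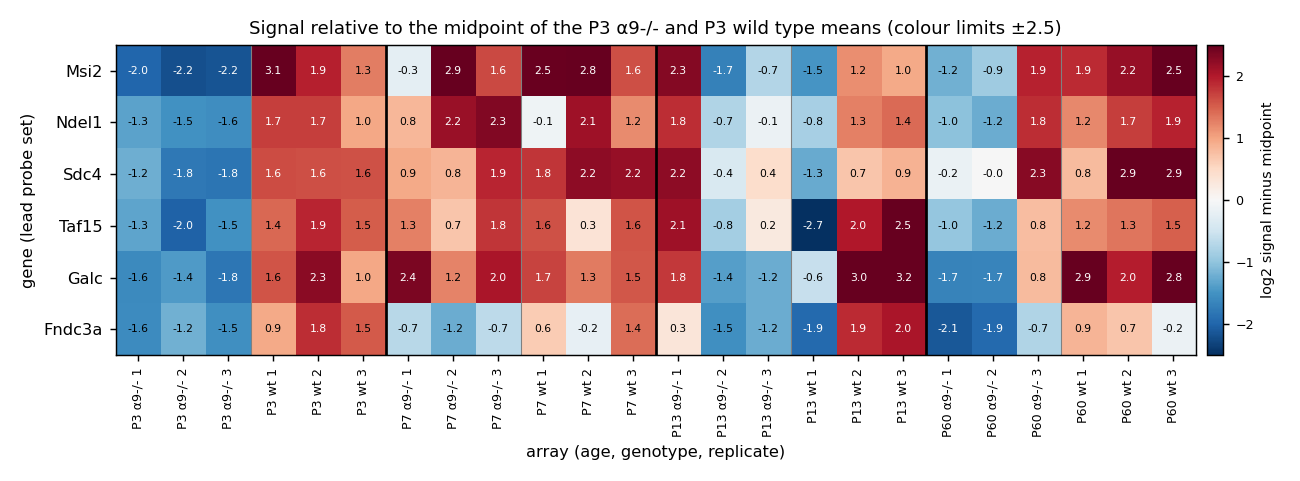
Log2 signal minus the midpoint of the P3 α9-/- and P3 wild type means (colour and printed value) at the lead probe set of each gene (rows) on each of the 24 arrays (columns, by age, α9-/- before wild type, wt). Blue marks low arrays, and all 6 genes are below the midpoint in P13 α9-/- 2, P13 wild type 1 and P60 α9-/- 1 and 2.

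The controls on the arrays varied among the low pools. The Gapdh difference between its 3′ and 5′ ends was -0.15 in P13 α9-/- replicate 2, -0.13 and -0.08 in P60 α9-/- replicates 1 and 2, and 6.30 in P13 wild type replicate 1. P13 wild type replicate 2, with a Gapdh difference of 6.47, was low at no lead probe set. With the arrays whose Gapdh 5′ end was low left out, 30 of 90 values were low outside P3. The bacterial poly-A spike-in transcripts averaged 4.35 in P13 α9-/- replicate 2, and 9.65 and 4.48 in P13 wild type replicates 1 and 2, so that low pools at P13 included arrays with and without a clear spike-in signal.

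A P3 difference at or below -1.5 was found at 1 annotated probe set of each gene. Of the 14 other probe sets, 8 had a lower mean in α9-/- cochleae at P3 and 6 a higher one, and the next lowest after the lead probe sets were Msi2 1435520_at (-1.14), 1458136_at (-0.83) and 1436818_a_at (-0.77). At these 3 Msi2 probe sets every P3 α9-/- pool was below every P3 wild type pool. This is a description at the age that chose the genes, and the share of all probe sets so separated at P3 was not computed. At 1458136_at the signal was 7.09, 7.03 and 6.93 in P3 α9-/- cochleae, against 7.93, 7.86 and 7.74 in P3 wild type cochleae, and at 1436818_a_at it was 10.04, 9.89 and 9.77 in α9-/- cochleae, against 11.01, 10.78 and 10.23 in wild type cochleae. A further probe set with a P3 difference of -4.28, 1441373_at, has no symbol in the annotation used here and is not counted among the 20. The supplementary lists of the study assign it to Msi2. For 5 of the 6 genes, all but Taf15, another probe set had a P3 difference above 0. Sdc4 had the only one past 1.5 in the other direction, as 0.0843% of all probe sets were. Over the 14 probe sets the differences ran from -0.63 to 0.35 at P7, from -0.12 to 1.45 at P13 and from -1.0 to 1.07 at P60, and none was called.

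Probe sets made from the same source sequence differed in size or direction of change. Msi2 1435520_at and the lead 1435521_at both derive from BQ174527. At 1435520_at the signal was 7.10, 6.67 and 6.90 in P3 α9-/- cochleae, against 7.62, 8.33 and 8.14 in P3 wild type cochleae, lower as at the lead but by less. It was also lower in α9-/- cochleae at P7 (-0.63) and P60 (-0.38), as the lead was (-0.87 and -2.25), and none of these passed the test. At P13 it was 8.24, 7.68 and 7.93 in α9-/- cochleae, against 7.30, 7.03 and 6.75 in wild type cochleae, a difference of 0.92 (adjusted p = 0.0587), and wild type replicate 1 was here the highest of its group. Sdc4 1417654_at and the lead 1448793_a_at both derive from BC005679. At 1417654_at the signal was 7.97, 7.02 and 8.07 in P3 α9-/- cochleae, against 5.12, 6.45 and 6.75 in P3 wild type cochleae, a difference of 1.58. At P60 it was 7.93, 7.79 and 8.46 in α9-/- cochleae, against 7.23, 7.25 and 8.41 in wild type cochleae, so that α9-/- replicates 1 and 2 lay within the wild type range there.

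**Figure D3:**
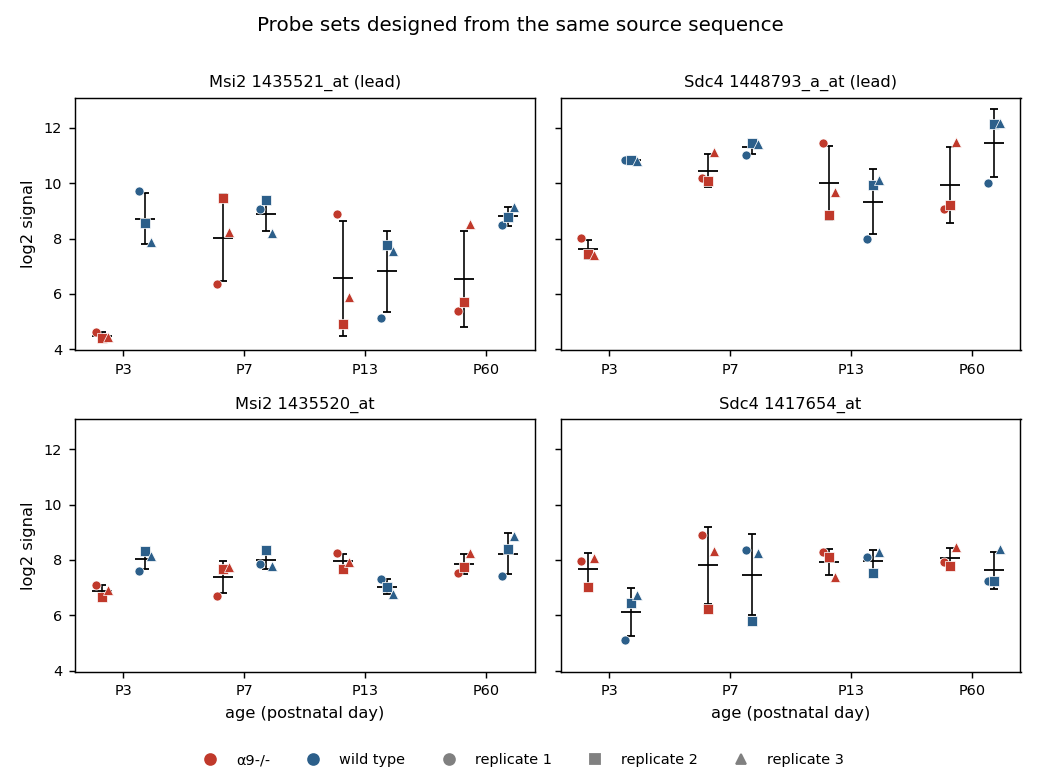
Log2 signal (y axis) by age (x axis) of a pair of probe sets from 1 source sequence, for Msi2 (left) and Sdc4 (right), with the lead probe set above and the other below; red points are α9-/- arrays, left of blue wild type arrays, and black lines give the mean and SD of 3 arrays. The drop of P3 α9-/- at the Sdc4 lead probe set is not seen at the lower one, where P3 α9-/- exceeds wild type by 1.58.

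Galc 1420547_at and 1449900_at derive from a different sequence than the Galc lead. At 1420547_at the signal was 6.06, 7.36 and 7.10 in P13 α9-/- cochleae, against 5.30, 5.17 and 5.72 in P13 wild type cochleae, a difference of 1.45. Its adjusted p of 0.0457 was under the threshold while the difference fell short of 1.5. At P60 it was 6.94, 6.99 and 7.19 in α9-/- cochleae, against 4.76, 7.02 and 6.13 in wild type cochleae, a difference of 1.07 (adjusted p = 0.776). Both differences were opposite in sign to those of the Galc lead probe set. Over P7, P13 and P60, 1420547_at averaged 0.87 (adjusted p = 0.105 by limma), against -1.73 at the lead. The third Galc probe set stayed between 2.74 and 4.15 on all arrays. Ndel1 1422568_at, which was outside the variance filter, had 11.20, 11.24 and 11.30 in P13 α9-/- cochleae, against 10.52, 10.15 and 10.61 in P13 wild type cochleae, a difference of 0.82 (adjusted p = 0.0493 over all 45101 probe sets). It had 10.69, 10.37 and 10.83 in P3 α9-/- cochleae, against 10.42, 10.78 and 10.64 in P3 wild type cochleae, where the groups overlapped. Taf15 1453504_at averaged 0.55 over P7, P13 and P60 (adjusted p = 0.0611 over all probe sets). Fndc3a 1426903_at had 11.18, 11.29 and 10.83 in P3 α9-/- cochleae, against 10.36, 11.18 and 11.01 in P3 wild type cochleae, and its differences at the later ages ran from -0.26 to 0.00.

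**Figure D4:**
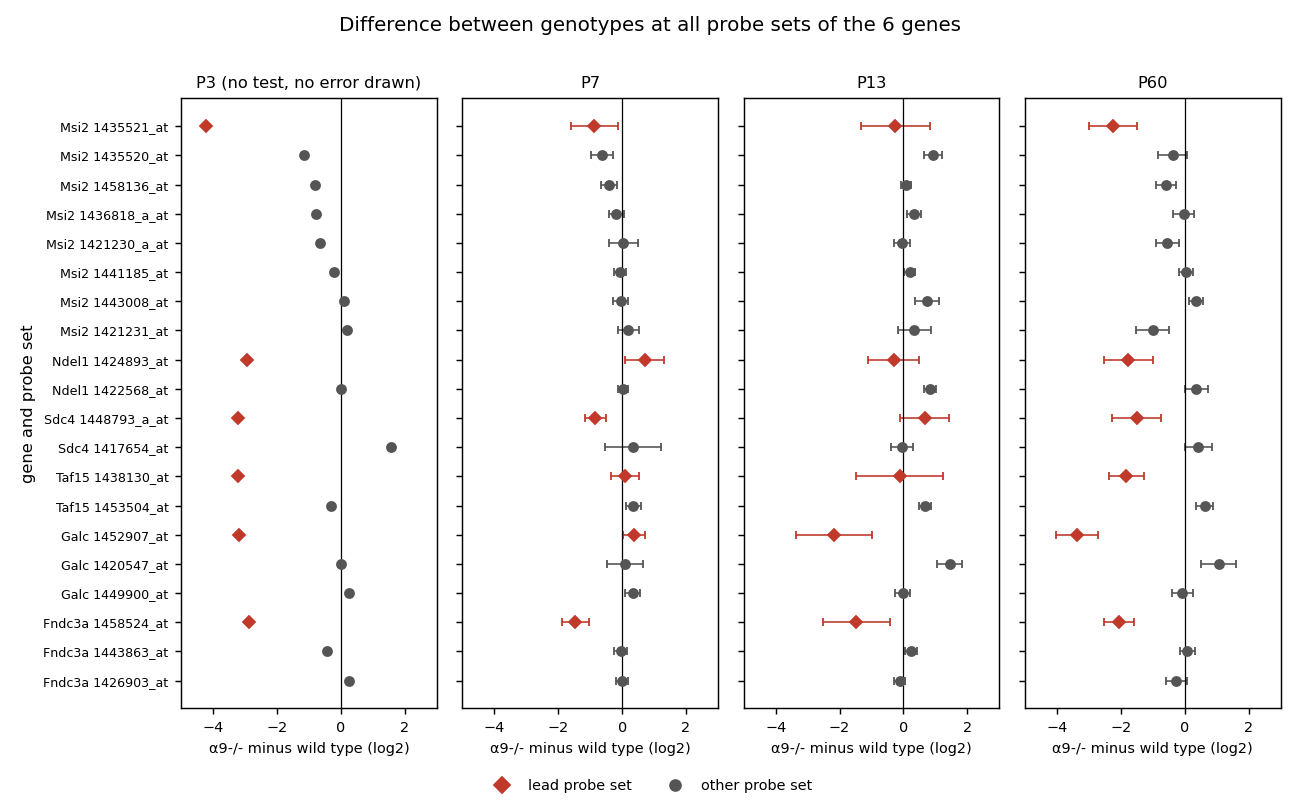
Difference of α9-/- minus wild type mean log2 signal (x axis) at each of the 20 probe sets of the 6 genes (y axis), 1 panel per age; red diamonds are the lead probe sets, grey circles the others, and bars at P7, P13 and P60 give the standard error from limma over all probe sets or over the variance-filtered ones where the probe set passed that filter. The 6 lead probe sets stand apart to the left at P3, and at P60 they lie between -3.38 and -1.51.

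Genes that work with the 6 were taken from lists. None of their probe sets was at or below -1.5 at P3, and calls were found at P13 only. Among 13 measured genes of the dynein and LIS1 list, 3 of 8 filtered probe sets were called higher and 1 lower at P13, beside 6.5% and 0.565% of all tested probe sets. Higher were probe sets of Dync1h1, the dynein heavy chain (1439950_at, 2.75, SE 0.39, adjusted p = 0.00977), and of the light intermediate chains Dync1li1 (1424947_at, 2.06, SE 0.33, adjusted p = 0.0135) and Dync1li2 (1433925_at, 1.72, SE 0.34, adjusted p = 0.0234). A probe set of Cdk5r1, the activator of the kinase Cdk5, was lower (1433450_at, -1.54, SE 0.38, adjusted p = 0.0405). The brightest probe sets of Dync1h1 (1416648_at, 0.04), Dync1li2 (1433926_at, 0.40) and Cdk5r1 (1433451_at, -0.07) did not pass, with adjusted p of 0.911, 0.200 and 0.894 over all 45101 probe sets. In the heparan sulfate proteoglycan list 2 of 19 filtered probe sets were called, both higher and both of Sdc3, syndecan-3 (2.08 and 1.73, adjusted p = 0.00726 and 0.0237). In the FET family and TFIID list 1 of 9 was called, a probe set of Taf2, a TFIID subunit (1457351_at, 1.57, SE 0.35, adjusted p = 0.0308), while the brighter Taf2 probe set 1434238_at had -0.44 (adjusted p = 0.125 over all probe sets). The lists of Musashi and Notch genes (7 filtered probe sets), of sphingolipid breakdown in lysosomes (10) and of the Fndc family (8) had no call at any age. The sphingolipid list also held Ugt8a and Gal3st1, whose enzymes make galactolipids and do not degrade them. The study's own supplementary list for P13 differs, since it includes a probe set of Ugt8a as higher in α9-/- cochleae. At one probe set per gene, the median P13 difference was 0.09 for the dynein list, 0.18 for the proteoglycan list, -0.27 for the TFIID list, -0.09 for the Musashi list, 0.10 for the sphingolipid list and -0.29 for the Fndc list, against -0.16 over all probe sets.

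Likeness to each lead probe set was measured by Pearson's r over the 18 arrays of P7, P13 and P60 after the mean of each age was subtracted, as a description without a test. The arrays share pools and processing. The 6 lead probe sets correlated with each other at 0.56 to 0.84 over their 15 pairs (median 0.76), highest for Galc with Fndc3a and lowest for Ndel1 with Fndc3a. The named genes most like Msi2 were Glo1 (0.84), Ndel1 (0.84) and Kcnq5 (0.84). For Taf15 they were Arhgap9 (0.85), Gm16316 (0.84) and Galc (0.84), and for Ndel1 they were Rbm39 (0.88), Xaf1 (0.87) and Tnfsf13os (0.85). Other lead probe sets were thus among the 3 closest to Msi2, Taf15 and Fndc3a. For Sdc4 they were Ptprf (0.85), Palld (0.82) and Clta (0.82), for Galc they were Tnfsf13os (0.90), Gm16316 (0.90) and C2 (0.89), and for Fndc3a they were Itga9 (0.87), Rasgrp3 (0.86) and Galc (0.84). Of the 18030 filtered probe sets outside the 6 genes, 36 reached an r of 0.8 with Galc, 15 with Fndc3a, 12 with Msi2, 10 with Taf15, 8 with Ndel1 and 7 with Sdc4. Among these, 5, 5, 4, 3, 3 and 1 in the same order were at or below -1.5 at P3. At the named ones outside the 6 genes the P3 difference was -1.92 for Xaf1, -1.83 for Kcnq5, -1.80 for Rasgrp3 and -1.44 for Ptprf, and between -0.83 and -0.16 for the others.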

How the data were processed

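Total RNA of pooled cochleae was labelled by the One-Cycle protocol and hybridised to 24 Affymetrix arrays. Per the methods, the authors imported the scans into R and used AffyPLM, which corrected the background as RMA does, normalised by quantiles and summarised probes by Tukey's biweight, and the submitters' processing notes name RMA and limma; their deposited values are log2 signals per probe set. Array medians ran from 6.49 to 6.89, and array maxima were 14.52 to 14.71 at P3 but 14.90 to 15.0 at P13, so levels across ages are given side by side only. Precision is limited by 3 arrays per group.

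The deposited log2 values were used unchanged. Of 45101 probe sets, 34958 had 1 gene symbol in the platform annotation, 932 several and 9211 none. As in the methods, the least variable probe sets were removed before testing. The methods do not state over which arrays that variance was taken, and all 24 arrays were used here. The most variable 40% of probe sets were tested by limma 3.58.1 in R 4.3.3 (lmFit, eBayes, Benjamini-Hochberg adjustment). This was done per age on 6 arrays, and in a group-means model over 18 arrays for the mean effect and the differences between ages. Probe sets outside the filter were taken from the same fit over all probe sets. Scripts were tested on simulated data with known differences. Promoter windows came from RefSeq (GRCm38.p6).

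All 20 probe sets of the 6 genes are accounted for. For likeness, the 3 named genes of highest correlation are given; from partner lists, the called probe sets are named, Dync1h1, Dync1li2, Cdk5r1, Taf2 and 1436482_a_at of Sdc3 after their values were seen. The members and lists were chosen with earlier results of these data known. Alternatives were the filter, the normalization, array weights, a replicate block, control signals, the threshold and leaving out arrays.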

Additional observations from a re-analysis of the deposited data

Results flagged for a closer look

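Msi2 1435520_at stood out because its groups separated in opposite directions at a pair of ages. Every P7 α9-/- pool was below every P7 wild type pool (6.71, 7.67 and 7.75, against 7.84, 8.38 and 7.80), a difference of -0.63, and every P13 α9-/- pool was above every P13 wild type pool, a difference of 0.92. The difference of these effects was 1.55 with an adjusted p of 0.252 by limma, so it did not pass the test. At P7, 1.82% of the tested probe sets had every α9-/- pool below every wild type pool. At P13, 6 of the 14 probe sets other than the leads, this one included, had every α9-/- pool above every wild type pool. The share of all probe sets so separated upward at P13 was not computed, so this count is not read as a trait of these genes. At P13, 6.5% of the tested probe sets were called higher, and 21.2% had every α9-/- pool below every wild type pool. Groups of 3 arrays were too small to look for single outlying arrays.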

How the results depend on the processing

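Apart from single arrays left out, 136 values of single probe sets and 62 counts or mean effects kept their direction and side of the threshold. With array weights, the mean difference over P7, P13 and P60 passed the test at Msi2 (-1.94, adjusted p = 0.00436), Ndel1 (-1.02, adjusted p = 0.0364) and Sdc4 (-1.20, adjusted p = 0.00897). It also passed at Taf15 (-1.32, adjusted p = 0.0249) and Galc (-2.41, adjusted p = 0.000787), and Fndc3a kept its call. Galc 1420547_at passed in the other direction (0.70, adjusted p = 0.0353). The weights gave 5268 called probe sets over the whole array for the mean effect, against 771 without them. With the weights, 4 probe sets of the genes were called at P13 (the Msi2, Galc and Fndc3a leads lower, Galc 1420547_at higher). At P60, 4 were called (the Msi2, Taf15, Galc and Fndc3a leads, lower). Of the 18041 tested probe sets, the weights called 2525 at P13 and 51 at P60, against 1274 and 0 without them. A threshold of 1 called 1 probe set at P13 (Galc 1420547_at, higher), and the share of all probe sets at that threshold was not computed. The filter over the 6 P60 arrays called 3, beside 144 of all 18041 tested probe sets. The Fndc3a mean lost its call without the filter (-1.67, adjusted p = 0.0893), with the filter over the 18 arrays (-1.67, adjusted p = 0.0503), after quantile normalization over all arrays (-1.60, adjusted p = 0.0594), with the replicate block (-1.67, adjusted p = 0.0686) and with the low Gapdh 5′ arrays left out (-2.06, adjusted p = 0.0725). At P13 the sign turned for Taf15 after quantile normalization (0.017) and for Sdc4 with array weights (-0.46) and with the low Gapdh 5′ arrays left out (-0.11). With 1 array left out in turn, the P13 differences ran from -1.42 to 0.57 at Msi2, from -1.06 to 0.23 at Ndel1, from -0.071 to 1.24 at Sdc4 and from -1.75 to 0.83 at Taf15, and the P7 difference at Taf15 ran from -0.33 to 0.36. Signs also turned without P13 α9-/- replicate 3 at Msi2 and Taf15, without P13 α9-/- replicate 1 at Sdc4, and without P7 α9-/- replicate 3 or P7 wild type replicate 2 at Taf15. The means over the 3 ages ran from -2.10 to -1.44 at Fndc3a and from -2.13 to -1.51 at Galc. The Fndc3a call held without P13 wild type replicate 1 or 3, P13 α9-/- replicate 1, or P60 wild type replicate 2 or 3, and was lost without any of the other 13. The Galc lead passed without P13 wild type replicate 1 (adjusted p = 0.0430), P13 α9-/- replicate 1 (adjusted p = 0.0402) or P60 wild type replicate 2 (adjusted p = 0.0421). In that order, these 3 settings called 162, 483 and 2587 of all 18041 tested probe sets. Without P60 wild type replicate 2, Galc 1420547_at also passed, in the other direction (1.05, adjusted p = 0.0362). At P13 between 0 and 1 probe set was called, Fndc3a 1458524_at without wild type replicate 1 and Galc 1420547_at without wild type replicate 3 or α9-/- replicate 1. In that order, these settings called 918, 2455 and 1195 of all 18041 tested probe sets. The causes were not tested.

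Same-numbered α9-/- and wild type arrays deviated together in some pairs and apart in others (r from -0.70 to 0.63), so the replicate numbers were not taken to pair them over the series. At P13 the poly-A spike-ins of replicates 1, 2 and 3 were close between genotypes (9.99, 4.35 and 5.08 in α9-/-, against 9.65, 4.48 and 4.99 in wild type), while at P3 they were not (4.54, 8.26 and 8.37 in α9-/-, against 9.30, 8.53 and 4.46 in wild type); shared processing by number was not tested. With the replicate number as a block, 0 probe sets were called at P7, 1312 at P13 and 0 at P60, none of the 6 genes. Without the block these counts were 2, 1274 and 0. Among the calls of the 6 genes, the block changed only that of the Fndc3a mean, which was lost. The poly-A block could not be fitted at P60, where all arrays carried the spike-in, and no P7 array had a low Gapdh 5′ end. With 3 pools a group, the 95% confidence interval of the P13 difference at Taf15 ran from -3.29 to 3.06, which still includes the P3 difference of -3.24.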

Other observations

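The probe set 1441373_at, which the annotation used here leaves unnamed and the supplementary lists of the study assign to Msi2, had the second lowest P3 difference of the array, -4.28, and was chosen after its values were seen. Its signal was 4.42, 3.85 and 3.65 in P3 α9-/- cochleae, against 7.90, 8.86 and 8.01 in P3 wild type cochleae. At P13 it was 7.99, 4.91 and 5.97 in α9-/- cochleae, against 5.16, 6.35 and 6.66 in wild type cochleae. At P60 it was 4.68, 4.90 and 7.26 in α9-/- cochleae, against 6.16, 8.61 and 8.98 in wild type cochleae. The pools that were low at P13 and P60 were the ones low at the Msi2 lead probe set, namely P13 α9-/- replicates 2 and 3, P13 wild type replicate 1 and P60 α9-/- replicates 1 and 2.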
